A study of Harpegnathos saltator with 18 samples.

Results

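The optic lobe and the retina are the first stations of the visual pathway, and their RNA was compared in workers of the ant Harpegnathos saltator. The comparison rests on 6 of the 18 libraries of the series, 3 of worker optic lobe and 3 of worker retina. Of the 20755 rows of the deposited table, it takes the 10992 that reached 1 RPKM or more in at least 3 of these 6 libraries. RPKM are read counts scaled to gene length and to the depth of each library. The other 12 libraries, 3 each of worker non-visual brain, worker antenna, worker fat body and gamergate ovary, served as points of reference. Gamergates are workers that have mated and lay eggs, so the ovary differs from all other groups in caste as well as in tissue. No treatment or genotype is given in the labels. The age of the animals, and how many went into a library, were not given in the sources used here.

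In the compound eye of insects, photoreceptor cells turn light into an electrical signal by way of opsins and a cascade of signalling proteins, and the retina also holds pigment cells and the cells that make the lenses. The photoreceptors send their axons into the optic lobe, a part of the brain made of neurons and glia, where the signal passes through layered neuropils before it reaches the central brain. The retina is thus an organ of sensory cells, whereas the optic lobe is nervous tissue of the same kind as the rest of the brain.

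Names could be given to none of the rows, since 0 of the 20755 identifiers occur among the 14329 genes of the RefSeq table at hand. Genes are therefore given by identifier, with no name, function or sequence, and the labelled tissues could not be checked against the markers of their cells. HSALG rows are gene models with a coding length, and XLOC rows are loci of another naming scheme. In whole tissue, fewer cells of a type and less RNA per cell cannot be told apart. Nothing in the labels says that the replicates came from separate animals. The spread behind each p-value is thus that of the libraries at hand and may be of technical origin. The library totals recovered from the RPKM were 18.8, 26.5 and 10.98 M (mega) reads for optic lobe replicates 1, 2 and 3, and 21.1, 20.4 and 10.5 M for retina replicates 1, 2 and 3. The share of the total that fell in gene models was 31.4 to 37.4% in optic lobe and 30.4 to 47.3% in retina.

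Optic lobe replicate 3 stood apart from its group. Across the 10992 rows, which are not independent replicates, its log2(RPKM + 1) values correlated at 0.82 and 0.79 with optic lobe replicates 1 and 2, which correlated at 0.94 with each other. Its correlation with the retina libraries was 0.62 to 0.67, against 0.46 to 0.54 for the other optic lobe libraries. Among the retina libraries the correlations were 0.84 to 0.94. Antenna replicate 3 also stood apart from its group, in that genes abundant in the retina were high in it. Some results that rest on these libraries are given with and without them, and the others only with them.

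The optic lobe transcriptome was spread over far more genes than that of the retina, which was concentrated in a few. The single highest row took 1.46, 1.06 and 2.11% of the summed RPKM in optic lobe replicates 1, 2 and 3, against 16.1, 19.7 and 13.0% in retina replicates 1, 2 and 3. The 10 highest rows of each library took 6.41, 5.51 and 7.98% in the optic lobe, and 41.6, 46.6 and 39.2% in the retina. The groups did not overlap in either measure. The 10 highest rows thus averaged 6.63 ± 1.25% in optic lobe and 42.5 ± 3.78% in retina (SD, n = 3 each), a difference of -35.8 percentage points. The 100 highest rows took 21.8 ± 6.73% in optic lobe and 61.6 ± 2.30% in retina (SD, n = 3 each). In replicates 1, 2 and 3 of the other tissues, the 10 highest rows took 9.32, 5.96 and 5.48% in non-visual brain and 20.8, 16.2 and 21.7% in antenna. They took 31.4, 24.1 and 30.1% in fat body and 22.1, 52.2 and 28.1% in ovary. A high concentration was thus not particular to the retina.

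**Figure D1:**
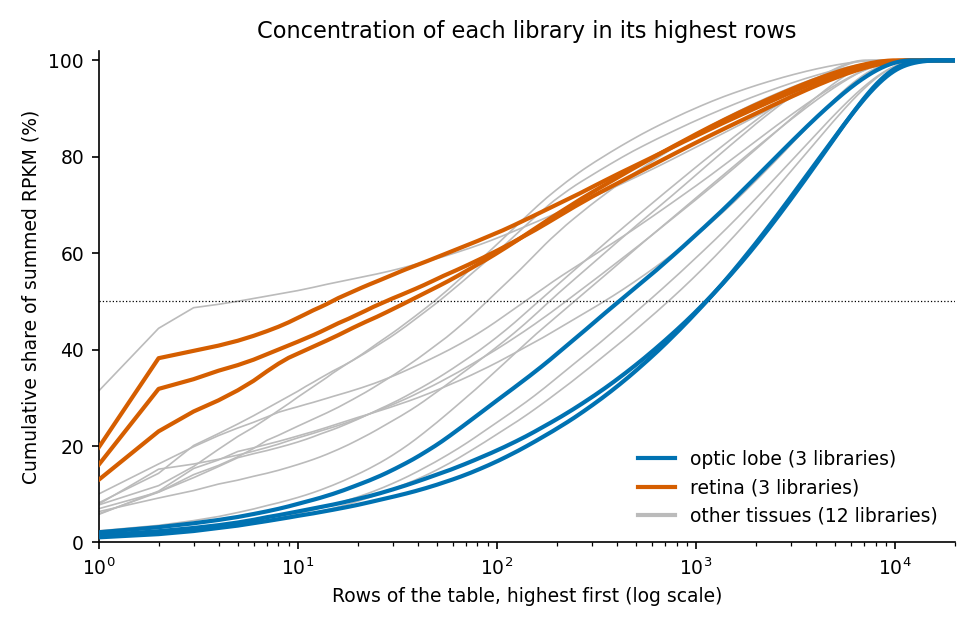
Cumulative share of the summed RPKM (%, vertical) against the rows of the table ordered from the highest (log scale, horizontal), with 1 line per library. The retina lines reach 50% after 15 to 36 rows and the optic lobe lines after 412 to 1133 rows, and the upper of the optic lobe lines is replicate 3.

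Counted from the other side, 1126, 1133 and 412 rows made up 50% of the RPKM in optic lobe replicates 1, 2 and 3. In retina replicates 1, 2 and 3 it took 28, 15 and 36 rows. Without optic lobe replicate 3 the optic lobe mean was 1129.5 rows, against 890 with it, and the share of the 10 highest rows was 5.96%. To 90% of the RPKM the count was 5771 ± 1090 rows in optic lobe and 2017 ± 221 in retina (SD, n = 3 each). The number of rows at 1 RPKM or more was 11787, 11815 and 10697 in the optic lobe libraries, all above the 9534, 9175 and 8122 of the retina libraries. At 10 RPKM or more there were 5561 ± 637 rows in optic lobe and 2804 ± 459 in retina (SD, n = 3 each). At 100 RPKM or more the groups overlapped, with 364 ± 116 rows in optic lobe and 343 ± 34.5 in retina (two-sided exact permutation p = 0.9, n = 3 each). Of 10 such measures, 7 did not overlap between the tissues, and each of these had a two-sided exact permutation p of 0.1, the smallest that 3 libraries against 3 allow, and 0.143 after Benjamini-Hochberg adjustment over the 10. None therefore passed a threshold of 0.05, which this design cannot reach.

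A pair of genes took the largest shares of the retina libraries. HSALG012315.1, a row with a coding length of 1221 bases, stood at 584, 411 and 780 RPKM in optic lobe replicates 1, 2 and 3, against 59011, 76038 and 37152 RPKM in retina replicates 1, 2 and 3. That was 0.188 to 0.236% of the optic lobe RPKM and 13.0 to 18.5% of the retina RPKM. HSALG012731.2, with a coding length of 1083 bases, stood at 462, 277 and 507 RPKM in the optic lobe libraries and at 57742, 80822 and 28806 RPKM in the retina libraries, where it took 10.1 to 19.7% of the RPKM. These were the first and second rows of the retina by mean RPKM and the rows of rank 30 and 52 in the optic lobe. Their optic lobe level was 1.03% of the retina level for HSALG012315.1 and 0.745% for HSALG012731.2. The differences were -6.59 (SE 1.28, adjusted p = 0.00152, limma) for HSALG012315.1 and -6.99 (SE 1.21, adjusted p = 0.000765, limma) for HSALG012731.2 on the log2(RPKM + 1) scale. With no filter on low values the adjusted p was 0.137 for HSALG012315.1 and 0.0869 for HSALG012731.2.

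In the optic lobe no gene took more than 2.11% of the summed RPKM of a library, or 3.76% of its recovered reads. Its highest row by mean share, HSALG020002.1 (coding length 1992 bases), stood at 3871, 2308 and 6971 RPKM in optic lobe replicates 1, 2 and 3, against 420, 1065 and 275 RPKM in retina replicates 1, 2 and 3. The next, HSALG003071.2 (570 bases), stood at 2281, 1406 and 2675 RPKM in the optic lobe libraries and at 345, 595 and 157 RPKM in the retina libraries. Both were above all retina libraries in all optic lobe libraries. HSALG020002.1 differed by 2.99 (SE 0.92, adjusted p = 0.017, limma) and HSALG003071.2 by 2.68 (SE 0.78, adjusted p = 0.0135, limma) on the log2 scale. Both calls held at equal sums of RPKM and with quantile normalization. With trimmed-mean factors they did not, with an adjusted p of 0.224 for HSALG020002.1 and 0.209 for HSALG003071.2 (limma), and with no filter on low values it was 0.133 and 0.0847. Both also missed the threshold without optic lobe replicate 1 (adjusted p 0.0556 and 0.0545), without retina replicate 1 (0.1 and 0.0646) and without retina replicate 3 (0.114 and 0.0931). HSALG020002.1 was abundant in other tissues too, at 4705 ± 2696 RPKM in non-visual brain and 3429 ± 1494 RPKM in fat body (SD, n = 3 each).

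The very highest rows of the stations were separate sets. Of the 10 highest rows by mean, 0 were common to optic lobe and retina. The 10 highest rows of the optic lobe took 4.63 to 7.59% of the RPKM of the optic lobe libraries and 1.18 to 1.61% of that of the retina libraries. They took 5.16 to 7.59% in the non-visual brain. The 10 highest rows of the retina took 0.686 to 1.11% of the RPKM in optic lobe, against 39.0 to 45.8% in retina. In antenna replicate 3 they took 17.8%, against 2.80 and 3.54% in antenna replicates 1 and 2. Within a tissue the ranking was partly stable, since 5 rows were among the 10 highest of all 3 optic lobe libraries and 7 among those of all 3 retina libraries.

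Among the 100 highest rows by mean, 52 were common to optic lobe and retina. Of these, 26 were among the 100 highest of all 6 tissues, and 0 were in the lists of optic lobe and retina alone. The optic lobe shared 81 of its 100 with the non-visual brain, and the retina shared 53 of its 100 with it. Of the 48 retina rows outside the optic lobe list, 43 were lower in the optic lobe under every scaling described next, against 5.01% of all rows tested. Of the 48 optic lobe rows outside the retina list, 13 were higher, against 9.33%. The lists were chosen by the levels of the same libraries, which bear on both counts.

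Gene by gene, the deposited values put most differences on the side of the optic lobe. A gene was called when its limma p, adjusted by the Benjamini-Hochberg method over the 10992 rows, was under 0.05 and its log2(RPKM + 1) difference was at least 1 in size. With the values as deposited, 5204 rows (47.3%) were higher in optic lobe than in retina and 613 rows (5.58%) were lower. The median difference over all rows was 1.15, in favour of the optic lobe. With trimmed-mean factors the median difference was 0.16, and the calls were 1389 higher and 1177 lower. With quantile normalization it was 0.06, with 1186 higher and 1101 lower. At equal sums of RPKM it was 1.49, with 6853 higher and 552 lower. The share of calls that were higher was 89.5% as deposited, 54.1% with trimmed-mean factors, 51.9% with quantile normalization and 92.5% at equal sums. Which scaling is closest to the RNA content of the cells was not tested. Without optic lobe replicate 1 the deposited values gave 2971 higher rows, and without optic lobe replicate 3 they gave 5217 higher and 709 lower.

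The calls that were the same under all 4 scalings hold, row by row, whichever of the 4 is taken. Their numbers do depend on which scalings were included, since the strictest one limits each side. Quantile normalization gave the fewest higher rows, 1186, and equal sums the fewest lower rows, 552. The calls under all 4 were 1026 rows (9.33%) higher in optic lobe and 551 rows (5.01%) lower. No row was called in opposite directions by different scalings. The libraries of the tissues did not overlap for 1026 of the 1026 higher rows and 546 of the 551 lower rows, against 61.4% of all rows tested, and the choice of the rows by this contrast sets these counts. The number of higher rows was 534 without optic lobe replicate 1, 499 without optic lobe replicate 2, 644 without retina replicate 1 and 660 without retina replicate 2. Without optic lobe replicate 3 it was 1316, of which 891 were among the 1026, and 551 rows were then lower, of which 510 were among the lower rows above. The filter on low values bears on these counts: 986 of the rows tested were under 1 RPKM in every retina library and 211 in every optic lobe library. Of all rows, 6610 reached 1 RPKM in all 6 libraries, 1542 in exactly 3 and so just inside the filter, and 1199 in exactly 2 and so just outside.

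**Figure D2:**
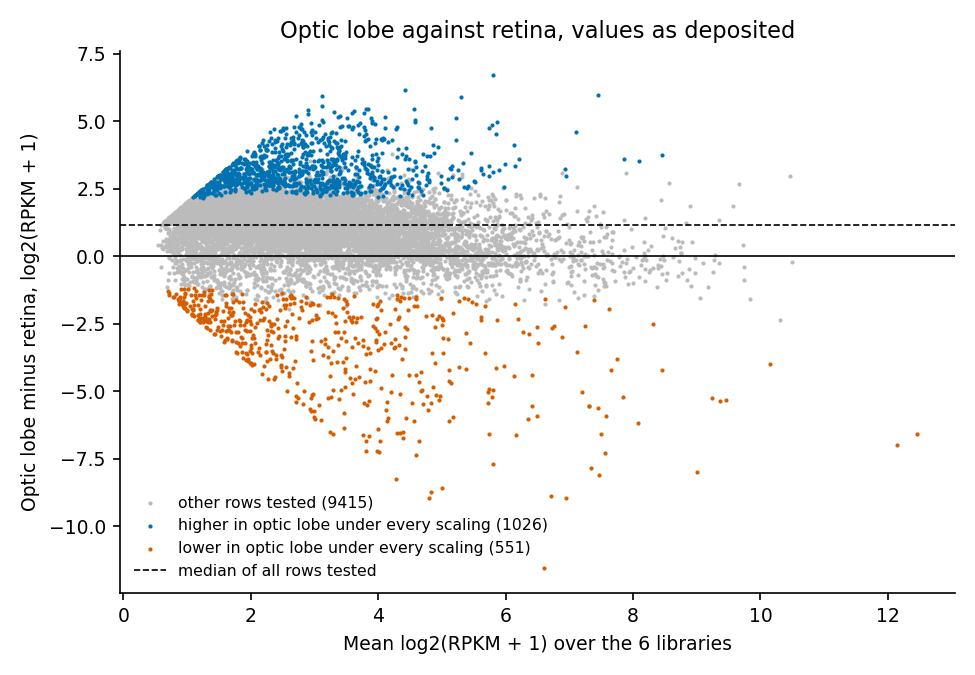
Difference between optic lobe and retina in log2(RPKM + 1) (vertical, positive where the optic lobe is higher) against the mean of log2(RPKM + 1) over the 6 libraries (horizontal), with 1 point per row tested. Blue points are the 1026 rows higher in optic lobe under every scaling and orange points the 551 lower ones; the dashed line is the median of all rows, 1.15, and the orange points reach farther from 0 than the blue ones.

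Among the calls under all 4 scalings the higher rows were more numerous, a split set in part by the scalings included. The lower rows reached the larger extremes. Among the 1026 higher rows the median difference was 3.04, all 1026 differed by at least 4-fold on the log2(RPKM + 1) scale, 159 rows differed by at least 16-fold, and 2 by at least 64-fold. Among the 551 lower rows the median difference was -2.72, 404 differed by at least 4-fold, 143 by at least 16-fold, 41 by at least 64-fold and 8 by at least 256-fold. The largest size of a difference was 6.71 among the higher rows and 11.55 among the lower ones. Since these rows were chosen by this contrast, the sizes are a description. They are sizes in the deposited values, where the median of all rows was 1.15 toward the optic lobe. A higher row also had to reach 1 with trimmed-mean factors, where that median was 0.16. The rule thus asked a larger deposited difference of higher rows than of lower ones. Of the 5204 rows higher as deposited, 2096 differed by at least 4-fold, and so did 405 of the 613 lower as deposited. The lower rows also took most of the summed RPKM of the retina. The 1026 higher rows took 15.5, 17.0 and 11.8% of the RPKM in optic lobe replicates 1, 2 and 3, and 0.899, 0.724 and 0.648% in retina replicates 1, 2 and 3. The 551 lower rows took 1.49, 1.47 and 2.32% in the optic lobe libraries, against 57.7, 62.6 and 54.2% in the retina libraries. Of the lower rows, 118 averaged at least 100 RPKM in retina, whereas 54 of the higher rows did so in optic lobe. The median coding length was 1083 bases for the higher HSALG rows, 960 bases for the lower ones and 1036 bases for all HSALG rows tested.

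The most abundant optic lobe genes with a large difference stood at similar levels in the non-visual brain. HSALG004673.2 (coding length 2880 bases) stood at 1466, 1102 and 1701 RPKM in optic lobe replicates 1, 2 and 3, against 69.9, 5.58 and 21.7 RPKM in retina replicates 1, 2 and 3. Its lowest optic lobe library was far above its highest retina library. In the non-visual brain it averaged 1660 ± 210 RPKM, in antenna 149 ± 76.9 and in ovary 3.56 ± 3.01 (SD, n = 3 each). The difference between optic lobe and retina was 6.0 (SE 0.74, adjusted p = 7.95e-05, limma), and 4.76 with trimmed-mean factors.

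HSALG007091.2 (951 bases) stood at 668, 460 and 1009 RPKM in the optic lobe libraries and at 66.6, 31.3 and 8.75 RPKM in the retina libraries. It averaged 886 ± 231 RPKM in the non-visual brain and 11.9 ± 4.70 RPKM in fat body (SD, n = 3 each). The difference between optic lobe and retina was 4.61 (SE 0.68, adjusted p = 0.00025, limma). Both genes thus varied several-fold between retina libraries, and both were called under every alternative tried.

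On the retina side, the lower rows that met the same rule were HSALG012315.1 and HSALG012731.2, described above. In antenna their levels split by library. They stood at 277, 1293 and 23317 RPKM for HSALG012315.1 and at 204, 1154 and 25407 RPKM for HSALG012731.2 in replicates 1, 2 and 3. In fat body they stood at 157, 254 and 330 RPKM for HSALG012315.1 and at 157, 200 and 267 RPKM for HSALG012731.2. In ovary they averaged 4.67 ± 4.98 and 5.16 ± 5.57 RPKM (SD, n = 3 each). The non-visual brain held 286, 140 and 500 RPKM of HSALG012315.1 and 154, 118 and 2.84 RPKM of HSALG012731.2 in replicates 1, 2 and 3. The optic lobe means of 591 ± 185 RPKM for HSALG012315.1 and 415 ± 122 RPKM for HSALG012731.2 (SD, n = 3 each) were thus above those of the non-visual brain, 309 ± 181 and 91.6 ± 78.9 RPKM. For HSALG012315.1 the libraries overlapped, since optic lobe replicate 2 stood at 411 RPKM. No test of these differences is given.

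A wider set of retina genes stood, by its median, at under 1% of the retina level in each optic lobe library. The set holds the 36 rows with a retina mean of at least 100 RPKM and at least 30-fold above the means of non-visual brain, fat body and ovary. The optic lobe played no part in choosing it, but the retina did, so its values are a description. The median row stood at 0.498, 0.419 and 0.619% of the retina mean in optic lobe replicates 1, 2 and 3. Single rows ran from 0 to 12.1, 6.30 and 14.0% in these libraries, and 2, 2 and 5 of the 36 were at 0. In non-visual brain replicates 1, 2 and 3 the median stood at 0.349, 0.284 and 1.06%. In antenna it stood at 0.425 and 2.79% in replicates 1 and 2 and at 18.2% in replicate 3, where none of the 36 was at 0. All 36 were lower in optic lobe under every scaling, against 5.01% of all rows, with a median difference of -6.62, and nothing is read from this count because high retina values chose the rows. Whether RNA of the retina was carried into these libraries was not tested.

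Of the 304 XLOC loci tested, 37 were higher in optic lobe under every scaling and 20 lower. Over all rows tested, 9.33% were higher and 5.01% lower, and the XLOC loci were not tested against the other rows. XLOC_074973 (2277 bases) stood at 94.4, 84.4 and 45.5 RPKM in optic lobe replicates 1, 2 and 3, against 1.39, 0.753 and 2.14 RPKM in retina replicates 1, 2 and 3 (difference 4.94, SE 0.46, adjusted p = 1.08e-05, limma). It averaged 21.9 ± 1.33 RPKM in the non-visual brain (SD, n = 3), below every optic lobe library. XLOC_007075 (317 bases) stood at 31.7, 26.2 and 65.2 RPKM in the optic lobe libraries and at 1.49, 1.85 and 0 RPKM in the retina libraries (difference 4.34, SE 0.53, adjusted p = 7.44e-05, limma).

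Among the lower loci, XLOC_093883 (874 bases) stood at 0.304, 0.691 and 1.04 RPKM in optic lobe replicates 1, 2 and 3, against 703, 661 and 524 RPKM in retina replicates 1, 2 and 3. This locus gave a difference of -8.56 (SE 0.42, adjusted p = 1.54e-07, limma). It was also present in all antenna libraries, at 283, 224 and 271 RPKM, so it was no gene of the retina alone. XLOC_094655 (2222 bases) stood at 0.192, 0.068 and 0 RPKM in the optic lobe libraries and at 48.8, 62.1 and 21.7 RPKM in the retina libraries (difference -5.26, SE 0.49, adjusted p = 1.08e-05, limma). Its antenna mean, 44.1 ± 9.35 RPKM, was close to its retina mean, 44.2 ± 20.6 RPKM (SD, n = 3 each). In fat body it stood at 27.3, 116 and 0.658 RPKM in replicates 1, 2 and 3.

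**Figure D3:**
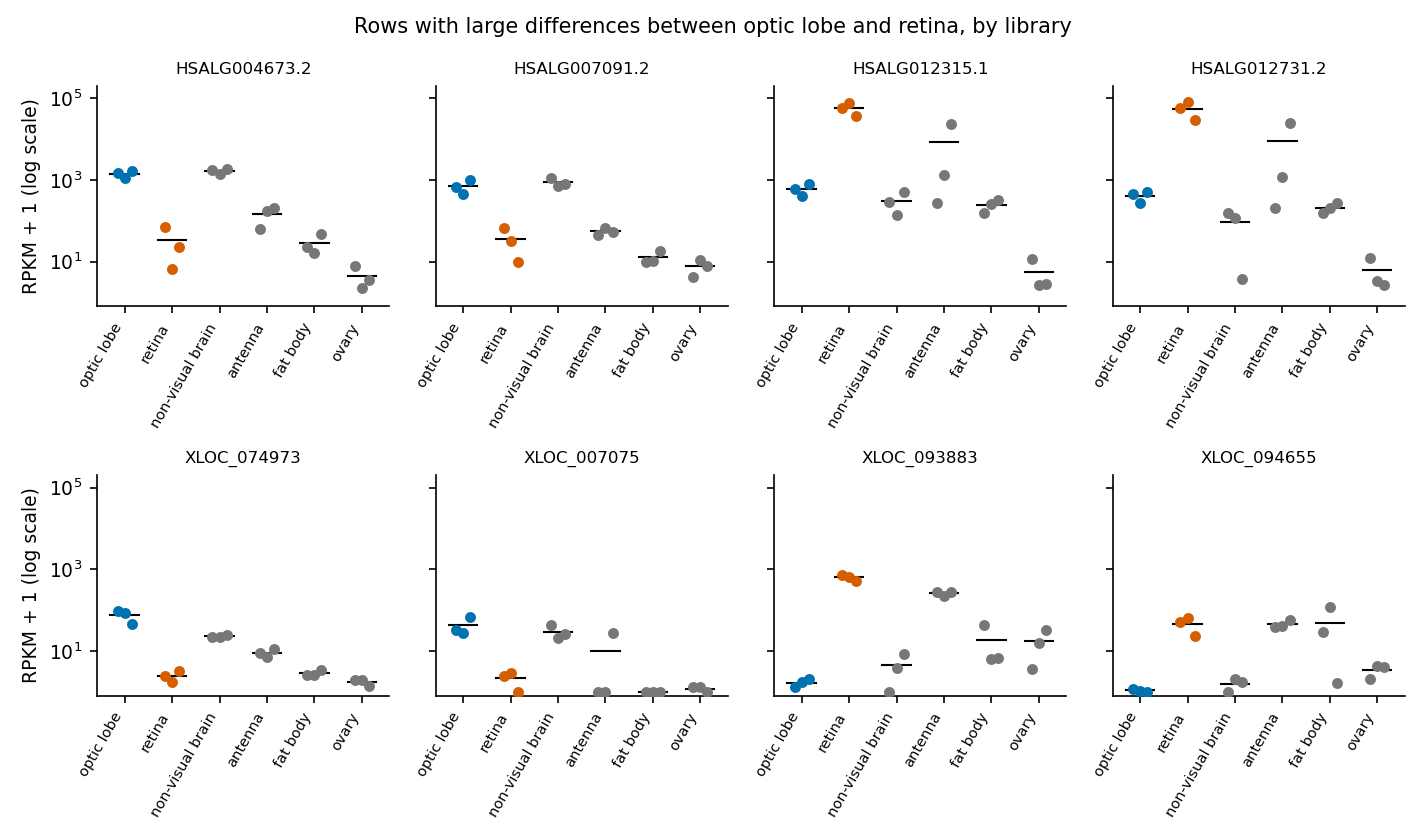
RPKM + 1 (log scale) of 8 rows in every library, with 1 panel per row, 1 point per library and a bar at the mean of each tissue. In the upper left pair of panels and the lower left pair the optic lobe points lie above all retina points, and for XLOC_074973 also above all non-visual brain points; in the other panels they lie far below the retina points, and 1 antenna point of HSALG012315.1 and of HSALG012731.2, that of replicate 3, lies near the retina.

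Some genes were read in one station and not at all in the other. Of the 9955 rows at 1 RPKM or more in all 3 optic lobe libraries, 127 (1.28%) had no read in any retina library. Of the 7118 rows at 1 RPKM or more in all 3 retina libraries, 30 (0.421%) had no read in any optic lobe library. These rows were set against 3 reads over the 3 libraries of the other tissue, a limit for counting error only. At that limit the median of the 127 rows was 31.4-fold higher in optic lobe, and that of the 30 rows 61.2-fold higher in retina. The limit takes reads as independent. Of recovered counts of 1 to 10, 56.1 to 66.1% were even in the retina libraries and 47.2 to 63.4% in the optic lobe libraries. Whether reads were counted in pairs was not tested, and if they were, the limit could be too low. Most of these rows were low: 15 of the 127 averaged 10 RPKM or more in optic lobe, and 11 of the 30 did so in retina.

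How many genes were at the same level in both stations depended on the settings. With the values as deposited, the 95% confidence interval of the difference lay wholly within 2-fold for 69 rows, a count not adjusted for multiple testing. It was 567 with trimmed-mean factors, 1085 with quantile normalization, 2487 with a pseudocount of 5 and 4090 with no filter. It was 0 without optic lobe replicate 1 or without retina replicate 1, 2 without optic lobe replicate 2, 1 without retina replicate 2, 167 without optic lobe replicate 3 and 120 without retina replicate 3. The most abundant of them was HSALG008082.2 (3414 bases), with 62.3, 64.3 and 66.6 RPKM in optic lobe replicates 1, 2 and 3 and 61.7, 70.0 and 68.9 RPKM in retina replicates 1, 2 and 3. The next was HSALG012655.2 (843 bases), with 59.1, 55.2 and 46.1 RPKM in the optic lobe libraries and 54.5, 69.3 and 45.4 RPKM in the retina libraries. Their differences were -0.05 (interval -0.96 to 0.86) and -0.06 (interval -0.98 to 0.86). With trimmed-mean factors both were called lower in optic lobe, with -1.30 for HSALG008082.2 and -1.31 for HSALG012655.2. HSALG012655.2 was near this level in every tissue, at 54.8 ± 15.6 RPKM in non-visual brain, 54.0 ± 2.0 in fat body and 46.9 ± 21.2 in ovary (SD, n = 3 each). HSALG008082.2 was not, with 4.87 ± 1.30 RPKM in fat body and 4.13 ± 2.27 in ovary (SD, n = 3 each).

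In the libraries outside the contrast, the genes higher in optic lobe were for the most part highest in the non-visual brain. Of the 4 other tissues, the non-visual brain had the highest mean for 856 of the 1026 higher rows (83.4%), against 41.6% of all rows tested. The ovary did so for 7.80% of the higher rows, against 39.4% of all rows. The median level of the higher rows was 3.60 in non-visual brain, 1.77 in antenna, 0.81 in fat body and 0.98 in ovary, in units of log2(RPKM + 1). Over all rows tested the medians were 3.14, 1.94, 1.81 and 3.0 in the same order of tissues. In 560 of the higher rows (54.6%) the non-visual brain stood at least 2-fold above antenna, fat body and ovary, against 14.9% of all rows. Of the 1316 rows called without optic lobe replicate 3, the non-visual brain was the highest for 79.8%.

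The lower rows, those of the retina, were spread over the other tissues. For 33.9% of the 551 the antenna was the highest of the 4, for 28.7% the fat body, for 26.9% the ovary and for 10.5% the non-visual brain. Over all rows tested the antenna was highest for 9.32%, the fat body for 9.70%, the ovary for 39.4% and the non-visual brain for 41.6%. Their median level was 1.38 in non-visual brain, 2.60 in antenna, 2.12 in fat body and 2.16 in ovary. Antenna replicate 3 had the highest median of the antenna libraries, 3.88, against 2.28 and 2.74 in replicates 1 and 2. It was also the highest over all rows tested, with 2.92 against 1.69 and 1.74, so this order is not particular to the lower rows. With the antenna mean taken without replicate 3, the antenna was the highest for 29.2% of the lower rows, against 9.91% of all rows.

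**Figure D4:**
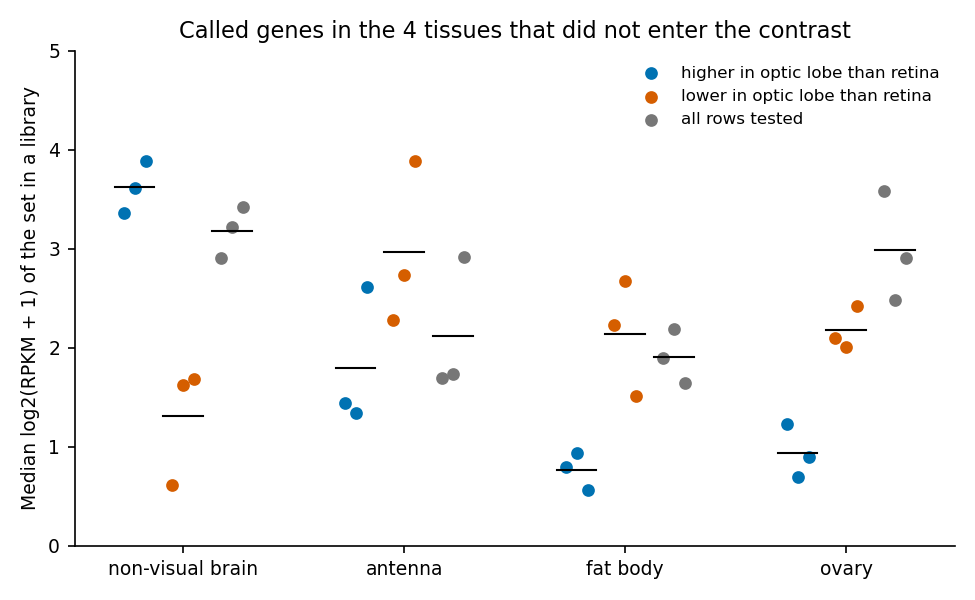
Median log2(RPKM + 1) (vertical) in the 12 libraries that did not enter the contrast, 1 point per library and a bar at the mean of 3, for the 1026 rows higher and the 551 rows lower in optic lobe than in retina under every scaling and for all 10992 rows tested. The higher rows lie between 3.36 and 3.89 in non-visual brain and under 1.3 in fat body and ovary; the lower rows have their lowest mean in non-visual brain, at 0.61 to 1.68.

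Genes of the brain could also be chosen without either station. A set of 130 rows had a non-visual brain mean of at least 50 RPKM and at least 16-fold above fat body and ovary. Their median level was 44.1, 49.0 and 70.5% of the non-visual brain mean in optic lobe replicates 1, 2 and 3, and 7.51, 2.51 and 5.37% in retina replicates 1, 2 and 3. The optic lobe libraries were all above the retina libraries, and in the deposited values replicate 3 was the nearest to the brain. Its summed RPKM was also the largest of the optic lobe libraries, 330420 against 264460 and 218400 in replicates 1 and 2. The order at equal sums was not worked out. Of the 125 rows of the set that were tested, 57 were higher in optic lobe under every scaling, 3 were lower, and the background over all rows is the 9.33% and 5.01% given above. As deposited, 93 were higher, 3 lower and 29 were not called. Leaving out optic lobe replicate 3 gave 87 higher and 4 lower. The median difference of the set was 2.81, against 1.15 for all rows, and single rows ran from -7.35 to 6.71.

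Genes that both stations share against the rest of the series were sought in 1 limma fit of all 18 libraries with 12996 rows. A row had to be at least 2-fold higher in optic lobe and in retina than in each of the 4 other tissues, 8 differences in all. Its p-value was the highest among these 8, one-sided, adjusted over all rows. By this test 0 rows were higher (0.0%) and 0 lower (0.0%). The rule is strict, since all 8 differences must pass with 3 libraries per tissue. A count of 0 thus does not show that no gene is shared. At an unadjusted p under 0.05, 35 rows were higher and 2 lower, and the smallest adjusted p of any row was 0.907. limma with voom weights on the recovered reads also called 0 in each direction, with 26 higher and 4 lower at the unadjusted threshold. The 35 became 21 without optic lobe replicate 1 or without non-visual brain replicate 1, and 23 without optic lobe replicate 2 or without retina replicate 2. Without optic lobe replicate 3 they became 41, and without antenna replicate 3 they became 49. Without all 3 antenna libraries 65 rows were higher and 17 lower at the unadjusted threshold, and with a pseudocount of 5 the higher rows numbered 19. Of the 35 rows, 9 had all 6 visual libraries above all 12 others. For 20 of the 35 the closest other tissue was the non-visual brain, for 8 the antenna, for 4 the ovary and for 3 the fat body. The optic lobe was the station with the smaller margin in 23 of the 35.

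The rows with the largest margin for both stations did not pass. HSALG009375.1 (1116 bases) stood at 16.8, 13.0 and 15.5 RPKM in optic lobe replicates 1, 2 and 3 and at 26.3, 62.9 and 6.26 RPKM in retina replicates 1, 2 and 3. Its highest value elsewhere was 8.32 RPKM, in antenna replicate 2, above retina replicate 3. The smallest of its 8 differences was 2.38 (SE 0.88, largest one-sided p of the limma fit 0.00706, adjusted p = 1). HSALG008048.2 (540 bases) stood at 34.4, 17.97 and 39.97 RPKM in the optic lobe libraries and at 278, 375 and 201 RPKM in the retina libraries. Elsewhere it was under 15 RPKM, save for antenna replicate 3 at 154 RPKM, with 0 in antenna replicates 1 and 2. It was called lower in optic lobe than in retina, by -3.20 on the log2 scale (SE 0.50, adjusted p = 0.000377, limma).

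Of the rows whose means were lower in both stations, HSALG013116.2 (606 bases) had means of 27.6 ± 15.2 RPKM in optic lobe and 24.0 ± 8.43 in retina, against 69.6 ± 40.7 in non-visual brain and 345 ± 71.2 in ovary (SD, n = 3 each). The optic lobe libraries stood at 20.9, 16.9 and 44.9 RPKM and the retina libraries at 33.7, 20.05 and 18.3 RPKM. The lowest library elsewhere stood at 42.3 RPKM, under optic lobe replicate 3. HSALG007004.2 (1704 bases) had means of 1.84 ± 0.41 RPKM in optic lobe and 2.45 ± 1.47 in retina, against 7.42 ± 4.64 in antenna, 12.6 ± 2.70 in non-visual brain, 70.1 ± 39.0 in ovary and 80.6 ± 47.7 in fat body (SD, n = 3 each). Antenna replicate 1, at 2.23 RPKM, lay under retina replicate 1, at 4.09 RPKM. Their margins to the closest tissue were -1.28 for HSALG013116.2 and -1.16 for HSALG007004.2, and the adjusted p was 1 for both (limma).

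Set against 1 tissue at a time, fewest genes were higher in both stations where the other tissue was the non-visual brain. The limma fit called 0 rows (0.0%) higher in both stations than in non-visual brain and 53 rows (0.408%) lower, with 87 higher and 275 lower at an unadjusted p under 0.05. Leaving out any 1 library, or using another scaling, also gave 0 higher. Against antenna, 278 rows (2.14%) were higher in both and 64 (0.492%) lower. Antenna replicate 3 weighed on these counts, since without it 1182 rows were higher and 113 lower. Why it did so was not tested. Without optic lobe replicate 1 the higher rows numbered 170, without retina replicate 1 they numbered 97, without retina replicate 2 they numbered 103, and trimmed-mean factors gave 634 higher and 53 lower. Against fat body, 344 rows (2.65%) were higher in both and 268 (2.06%) lower. That order turned with trimmed-mean factors, which gave 338 higher and 489 lower, and with quantile normalization, which gave 203 higher and 346 lower. It also turned without retina replicate 1 (196 higher, 202 lower), without retina replicate 2 (196 higher, 214 lower) and without fat body replicate 3 (181 higher, 205 lower). The higher rows numbered 224 without optic lobe replicate 1, 222 without fat body replicate 1 and 541 without antenna replicate 3. Against ovary, 286 rows (2.2%) were higher in both and 852 (6.56%) lower. Without ovary replicate 2 the higher rows numbered 173. Trimmed-mean factors gave 482 higher and 822 lower, quantile normalization gave 487 higher and 883 lower, and equal sums gave 335 higher and 561 lower. These comparisons share the 6 visual libraries. They differ in depth on the other side, since 3 reads of a model of 1000 bases were worth 0.634 to 1.27 RPKM in the antenna libraries and 0.198 to 0.265 RPKM in the non-visual brain libraries.

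With the non-visual brain left out of the comparison, 10 rows (0.0769%) were higher in both stations than in antenna, fat body and ovary. The count was 34 without antenna replicate 3, 4 without retina replicate 1, fat body replicate 1 or ovary replicate 3, 5 without retina replicate 2, ovary replicate 1 or ovary replicate 2, and 6 without optic lobe replicate 2, non-visual brain replicate 2 or fat body replicate 2. Their optic lobe mean was above the retina mean in 8 of the 10. The non-visual brain mean was above both stations in 1 and below both in 5. The 2 with the largest margin, named after their values were seen, were HSALG010897.2 and HSALG022115.1. HSALG010897.2 stood at 129, 105 and 265 RPKM in optic lobe replicates 1, 2 and 3 and at 157, 151 and 105 RPKM in retina replicates 1, 2 and 3, with 374, 124 and 106 RPKM in non-visual brain. HSALG022115.1 stood at 18.3, 18.2 and 11.8 RPKM in the optic lobe libraries, at 22.7, 21.7 and 37.3 RPKM in the retina libraries and at 20.3, 7.24 and 9.58 RPKM in non-visual brain. It was listed at 0 in all libraries of antenna, fat body and ovary. Their adjusted p were 0.0446 for HSALG010897.2 and 0.000454 for HSALG022115.1 (limma).

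By mean levels alone, with no test, far more rows stood above the 4 other tissues in a single station than in both. The stations were not set against each other here, so a row counted for a single station need not differ between them. Over the 12996 rows, 912 stood at least 2-fold above the highest of the 4 other tissues in optic lobe and not in retina. In retina and not in optic lobe, 304 did so. In both, 54 did so. Other scalings were not tried for these counts. How many common rows unrelated stations would give was not worked out, so the 54 is a count only.

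**Figure D5:**
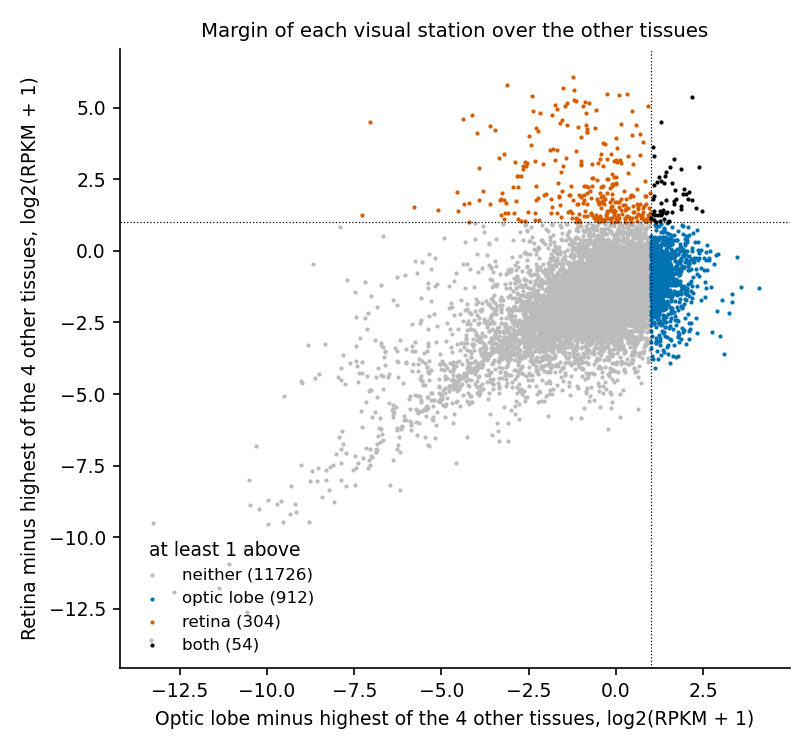
Margin of the optic lobe mean (horizontal) and of the retina mean (vertical) over the highest of the 4 other tissue means, in log2(RPKM + 1), with 1 point per row of the 12996. The dotted lines mark a margin of 1; 912 blue points pass it for optic lobe only, 304 orange points for retina only and 54 black points for both.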

How the data were processed

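Polyadenylated RNA was sequenced from dissected tissues without keeping the strand, per the labels' protocols, so reads of overlapping antisense genes cannot be told apart. The authors deposited 1 table of RPKM with 1 column per library. STAR 2.5.0b and DESeq2 appear, without a role, in the submitters' processing notes. The genome build, the annotation and how reads of near-identical genes were treated: not given in the sources used here. Gene lengths, library totals and reads were recovered from the steps of the RPKM (100% of values whole to a relative allowance of 1.5e-06); 97.4% of HSALG lengths were multiples of 3 and are called coding lengths. Read limits cover counting error alone and take reads as independent.

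Tests used limma 3.58.1 (mean-variance trend, R 4.3.3) on log2(RPKM + 1), a scale that understates changes of low genes. Groups came from the labels. Scaling, pseudocount, filter, replicate block, left-out libraries and voom on recovered reads were tried. limma was tested on simulated data. Genes were named by rule, at most 2 per direction and comparison: the most abundant with a difference of at least 4, the XLOC loci with the largest difference, the most abundant rows within 2-fold, the largest margins of both stations and the largest shares. The comparison, lists and rules were chosen with earlier results of these data known. A planned check of cell type markers needs gene names and was not run.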

Additional observations from a re-analysis of the deposited data

How the results depend on the processing

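The direction of the rows named for a call between optic lobe and retina by the stated rules held under every alternative tried for them, and the counts of rows shared by both stations against 4 tissues stayed at 0. Values that moved by more than the spread or by over 1.5 times were as follows. For rows higher in optic lobe (5204 as deposited), trimmed-mean factors gave 1389, quantile normalization 1186, a pseudocount of 5 gave 3027, the fit of all 18 libraries 3189, and leaving out 1 library 2971 to 5217. For lower rows (613), trimmed-mean factors gave 1177, quantile normalization 1101, and leaving out 1 library 491 to 709. The rows higher under every scaling numbered 499 to 1316 when 1 library was left out, and the lower ones 456 to 551. The rows within 2-fold (69) numbered 109 at equal sums, 567 with trimmed-mean factors, 1085 with quantile normalization, 43 and 2487 with pseudocounts of 0.1 and 5, 4090 with no filter, 38 with a filter at 5 RPKM, 26 in the fit of all 18 libraries, and 0 to 167 when 1 library was left out; this count depends on nearly every choice. The median difference (1.15) was 1.49 at equal sums, 0.16 with trimmed-mean factors, 0.065 with quantile normalization, 1.45 and 0.66 with pseudocounts of 0.1 and 5, 0.67 with no filter and 1.44 with voom. Without the highest row of each library, the 10 highest rows took 32.3% of the retina RPKM and 67 rows made up 50% of it. The non-visual brain median was 3.09 for rows higher as deposited and 3.60 for those higher under every scaling, and for lower rows 1.48 as deposited and 2.69 with trimmed-mean calls. Shared rows numbered 10 against antenna, fat body and ovary only, and 4 to 34 there when 1 library was left out. Against 1 tissue at a time, the scalings that moved a count by over 1.5 times were trimmed-mean factors (634 higher than antenna, 489 lower than fat body, 482 higher than ovary), quantile normalization (203 higher than fat body, 487 higher than ovary) and equal sums (561 lower than ovary). Leaving out 1 library there gave 97 to 1182 higher and 50 to 113 lower than antenna, 181 to 541 higher and 184 to 344 lower than fat body, 173 to 400 higher and 626 to 1002 lower than ovary, and 0 higher and 38 to 61 lower than non-visual brain. These tests, the left-out libraries for calls under every scaling, and rescaling without the 10 highest rows (3775 higher and 688 lower) were chosen after seeing the data. The cause of each shift was not tested. With the replicate number as a block the counts were 5439 higher, 640 lower and 118 within 2-fold; deviations from the group means of same-numbered optic lobe and retina libraries correlated at 0.10, -0.04 and 0.06, so the numbers were not taken as pairing the samples. Depth limits the low rows most: in optic lobe replicate 3, 3 reads of a model of 1000 bases were worth 0.273 RPKM, and in retina replicate 3 they were worth 0.287 RPKM.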
